A study of Mus musculus with 6 samples.

Results

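The genes described here mark ovarian stroma and smooth muscle, and they were followed in mouse granulosa cells, the somatic cells that surround the oocyte in the follicle. A list of 34 genes was taken, and each gene was represented by the probe set that carried its symbol alone and was brightest on average over all arrays. By that rule 33 of the 34 genes were measured, of 18193 genes on the array, and Fbn1 was not analysed here. The series holds 6 Affymetrix arrays in 3 groups of 2: wild type mice aged 25 days, double knockouts of that age, and double knockouts aged 2 months. The double knockout (dKO) carried Foxo1 f/- and Foxo3 f/- alleles together with Amhr2-cre, a Cre recombinase driven from the locus of the anti-Müllerian hormone receptor, which is active in granulosa cells. All groups shared a mixed FVB and C57BL/6 background. Neither the number of animals behind a sample nor the way the cells were isolated is given in the sources used here, and wild type at 2 months of age was not analysed here.

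The theca and stroma lie outside the basal lamina of the follicle. Fibroblasts there secrete small leucine-rich proteoglycans, which bind and space collagen fibrils, and elastic fibres built of elastin on a scaffold of fibrillins and fibulins. Smooth muscle cells of the theca externa and of vessel walls contract when myosin light chain kinase phosphorylates the regulatory light chain of myosin, and their contractile genes are controlled by serum response factor, which binds the CArG box. Some of the same genes, among them Vim, Sparc and Acta2, are also read in other cell types, so the list names a tissue in which they are abundant and not a source of RNA. In such bulk samples a larger number of cells of a type and more RNA per cell cannot be told apart.

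The promoters of 3 contractile genes are shown because Mylk had the largest day 25 difference of the list, Acta2 is a common marker of smooth muscle and Myl9 encodes the light chain that the Mylk product acts on, and because the elements that serve such genes can be read in them. They are the 250 bases before the RefSeq start of Mylk (chr16:34784700-34784949, plus strand), Acta2 (chr19:34255374-34255623, minus strand) and Myl9 (chr2:156775214-156775463, plus strand), in build GRCm38.p6. Capitals mark the CArG box, the CArG box with 1 C or G in its core of A and T, and the MCAT element CATTCC on either strand, which binds TEAD factors.
Mylk: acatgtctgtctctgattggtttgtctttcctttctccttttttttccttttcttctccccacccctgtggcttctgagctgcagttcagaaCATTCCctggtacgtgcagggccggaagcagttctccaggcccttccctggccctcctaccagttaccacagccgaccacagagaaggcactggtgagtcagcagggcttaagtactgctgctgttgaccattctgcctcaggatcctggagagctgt
Acta2: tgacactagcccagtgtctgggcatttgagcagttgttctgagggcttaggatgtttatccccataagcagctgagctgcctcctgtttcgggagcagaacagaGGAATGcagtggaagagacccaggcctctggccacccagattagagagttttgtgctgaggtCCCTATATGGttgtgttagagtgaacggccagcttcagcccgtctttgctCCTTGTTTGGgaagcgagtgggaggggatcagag
Myl9: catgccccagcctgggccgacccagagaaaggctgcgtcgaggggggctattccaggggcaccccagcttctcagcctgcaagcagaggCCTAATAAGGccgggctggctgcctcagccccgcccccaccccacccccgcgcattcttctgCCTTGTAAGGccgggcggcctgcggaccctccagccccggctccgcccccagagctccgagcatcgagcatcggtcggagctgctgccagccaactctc

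RefSeq windows were at hand for 21 of the 33 measured genes. A gene was counted where any of its windows held the element, whereas the percentages are shares of windows. The CArG box was in 1 of the 21, Myl9, and in 1.47% of 32851 windows of the same length. With 1 C or G allowed in the core it was in 4 of the 21 (Acta2, Fbln2, Myl9 and Timp3) and in 7.24% of all windows. In Acta2 the sequence CCCTATATGG lay 84 to 75 bases and CCTTGTTTGG 34 to 25 bases before the start. The MCAT element was in 6 of the 21 (Acta2, Lmod1, Mylk, Notch4, Ogn and Smtn) and in 12.6% of all windows. The forkhead element GTAAACA, searched on both strands because Foxo1 and Foxo3 bind forkhead sites, was in 0 of the 21 and in 3.17% of all windows, which says only that these letters are not in these windows.

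Arrays had a median intensity of 73 or 74. On its brightest probe set Foxo1 was 10319 and 7666 in wild type, 904 and 2291 in the day 25 dKO, and 126 and 343 in dKO at 2 months, whereas Foxo3 was higher on every dKO array (1872 to 3279) than in wild type (1632 and 1342). The granulosa identity genes Inha (26038 to 27499) and Foxl2 (6165 to 13167) were bright on all arrays. dKO 2-month replicate 1 stood apart, with r from 0.964 to 0.978 across probe sets against the other arrays, which had r from 0.982 to 0.992 among themselves. In all 3 comparisons 0 of 45037 probe sets, and so 0 of the 33 genes, passed an adjusted p of 0.05 in limma. The differences below are therefore measured values, and none is a call.

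At day 25, most stromal and smooth muscle genes were brighter in the dKO than in wild type. The mean was higher for 28 of the 33 genes, where 55.4% of all genes had a higher mean, and the median log2 difference was 0.38, against 0.03 over all genes. Both dKO arrays lay above both wild-type arrays for 14 genes (26.4% of all genes did so) and below them for 3 (19.5%). At an unadjusted p under 0.05, limma gave 7 genes higher, where 4.89% of all genes reached it, and 1 lower, where 3.44% did. The contractile genes had the largest median of the 6 role groups (0.86) and the elastic fibre genes the smallest (-0.17). The contractile median was 0.54 without wild-type replicate 2. The elastic fibre median became 0.0098 when wild-type replicate 1 was left out and 0.0079 when dKO day 25 replicate 2 was. These counts move with single arrays. Without wild-type replicate 2 there were 4 higher (3.09% of all genes) and 1 lower (2.46%), and the median was 0.16. Without dKO day 25 replicate 1 there were 4 higher (3.62%) and 0 lower (1.62%), and the median was 0.73. Without dKO day 25 replicate 2 there were 5 higher (3.11%) and 0 lower (2.63%). The upward separated genes numbered 24 when dKO day 25 replicate 1 was left out (40.6% of all genes) and 22 when wild-type replicate 1 was (36.9%), since a lone array is separated more easily for any gene.

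**Figure D1:**
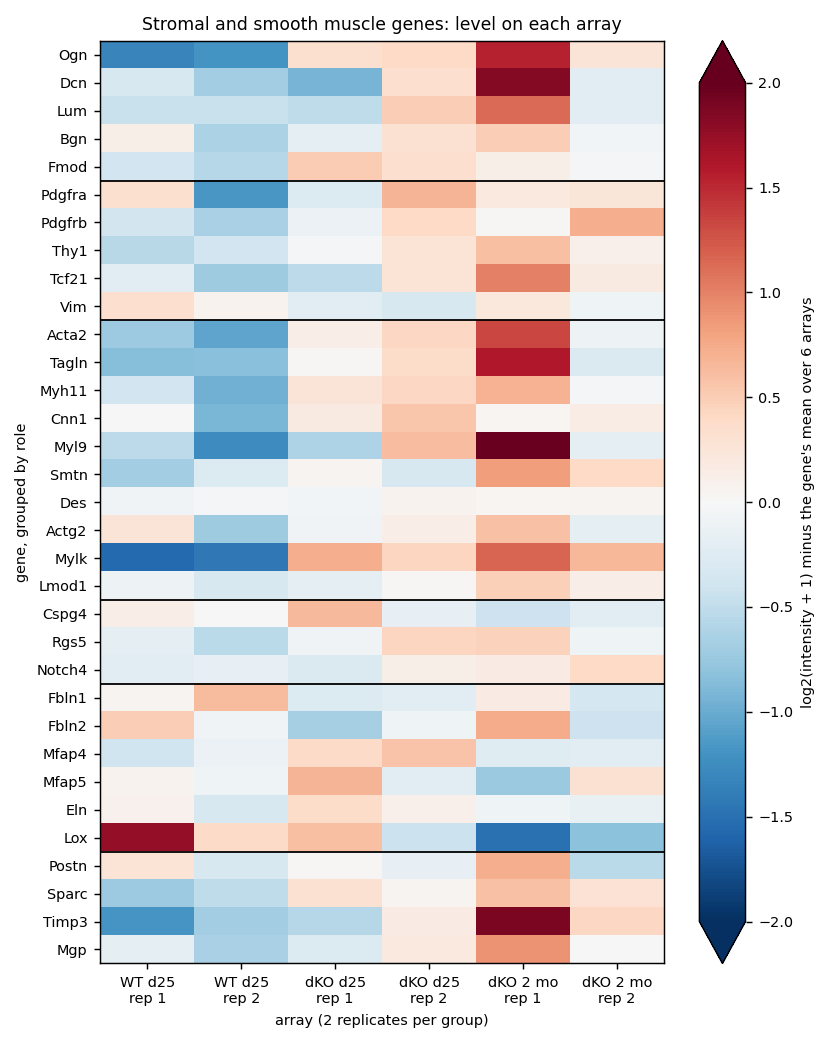
Level of each of the 33 genes (rows, grouped by role) on each of the 6 arrays (columns), as log2(intensity + 1) minus the gene's mean over the 6 arrays, with red above and blue below that mean. Wild-type columns are mostly blue for the proteoglycans and contractile genes, and dKO 2-month replicate 1 holds the highest value of 20 of the 33 genes.

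All 10 contractile genes had a higher mean in the dKO at day 25, and for 5 of them the arrays did not overlap, where 26.4% of all genes were so separated. Actg2 became -0.23 without wild-type replicate 2 and Des -0.0062 without dKO day 25 replicate 2. Mylk, which encodes myosin light chain kinase, read 1702 and 1849 in the wild type, 8244 and 6686 in the younger dKO, and 11151 and 7932 at 2 months. Every dKO array was thus more than 3 times as bright as either wild-type array. The log2 difference at day 25 was 2.06 ± 0.21 (SE), a 4.18-fold difference, with adjusted p = 0.367 in limma. None of the 18193 genes had a smaller value in this comparison, but the adjustment can give several probe sets the same one. Its other 2 probe sets gave 2.33 and 1.66. When any 1 array was left out, the difference of Mylk stayed between 1.91 and 2.22, with adjusted p from 0.322 to 0.870.

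Acta2 and Tagln, named after their values were seen because they are the common markers of smooth muscle, ran the same way. Acta2, smooth muscle alpha actin, was 3534 and 2831 in wild type, 6472 and 7864 in the day 25 dKO, and 14836 and 5453 at 2 months. Tagln, the actin-binding protein transgelin, was 917 and 927 in wild type, 1687 and 2151 in the day 25 dKO, and 5030 and 1362 at 2 months. For both genes all 4 dKO arrays lay above both wild-type arrays, and the 2-month replicates were further apart than the means of the day 25 groups. The day 25 log2 differences were 1.17 ± 0.49 (SE) for Acta2 and 1.05 ± 0.62 for Tagln, with adjusted p of 0.634 and 0.697 in limma.

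Myh11, the smooth muscle myosin heavy chain, was 229 and 153 in wild type, 355 and 397 in the day 25 dKO, and 483 and 290 at 2 months. No dKO array reached down to the wild-type pair, and the day 25 difference was 1.0 ± 0.32 (SE), adjusted p = 0.564. Smtn, which encodes the actin-binding protein smoothelin, was 150 and 200, then 252 and 194, then 433 and 319 in the same order of groups. Its day 25 arrays overlapped with wild type, and both 2-month arrays lay above the other 4. Of the remaining contractile genes Cnn1, calponin, had a day 25 difference of 0.82 ± 0.33 with no overlap (0.38 without wild-type replicate 2), and Myl9, the regulatory light chain, 0.89 ± 0.84 with overlap. Des, Actg2 and Lmod1 had differences of 0.06, 0.25 and 0.13, each with overlapping arrays. Des was between 111 and 123 on all 6 arrays.

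**Figure D2:**
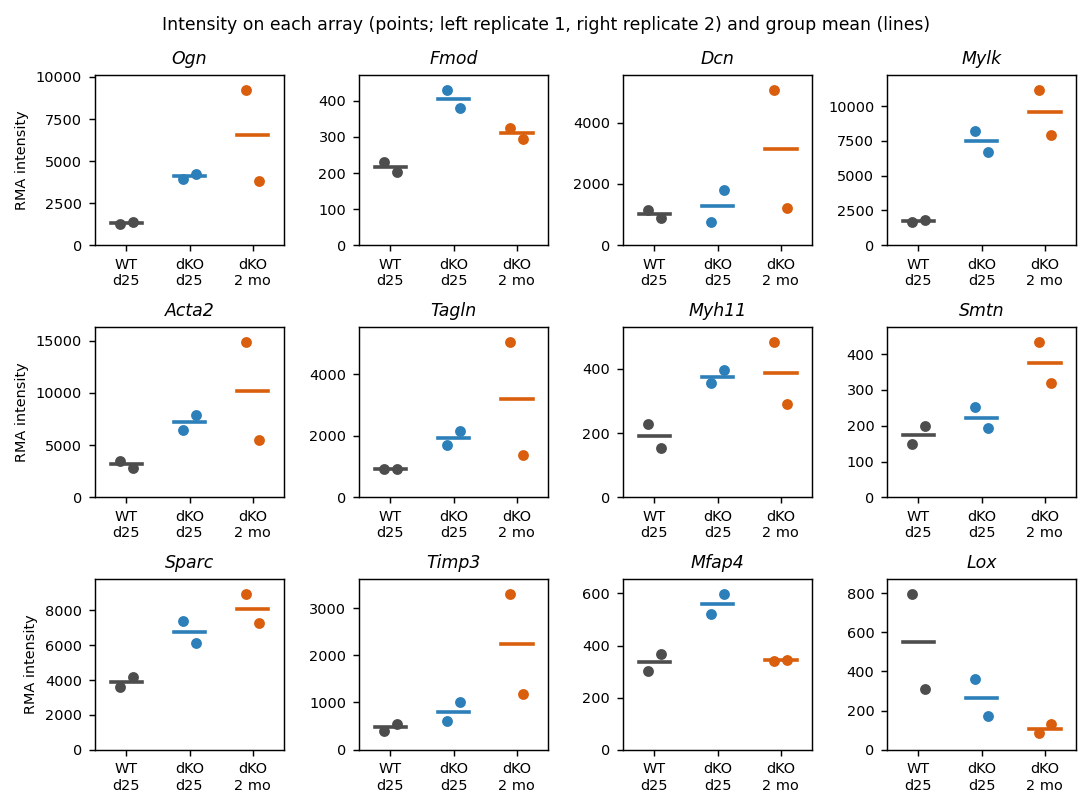
RMA intensity (linear scale, starting at 0) of 12 of the genes on each array, with points for the 2 replicates and a line for the mean of each group. Mylk, Ogn, Fmod, Acta2, Tagln, Myh11, Sparc and Timp3 show all 4 dKO arrays above both wild-type arrays. Lox shows its lowest values at 2 months, and Mfap4 is high in the dKO at day 25 alone (521 and 596).

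For all 5 small leucine-rich proteoglycans the day 25 mean was higher in the dKO, with a median log2 difference of 0.44. Only Ogn and Fmod were separated from wild type, both upward, where 26.4% of all genes were. Leaving out dKO day 25 replicate 2 gave a median of 0.064, and leaving out replicate 1 of that group gave 0.84. Ogn, osteoglycin, was 1275 and 1390 in wild type, 3967 and 4219 in the day 25 dKO, and 9223 and 3823 at 2 months. The day 25 replicates of each genotype were close, and the difference was 1.62 ± 0.42 (SE), adjusted p = 0.515, with 1.27 on its other probe set. Fmod, fibromodulin, which binds collagen, was 231 and 203 in wild type, 430 and 381 in the day 25 dKO, and 325 and 295 at 2 months. On this probe set the 3 groups did not overlap, and dKO at day 25 was highest. Another Fmod probe set had a 2-month array at 149, above the day 25 dKO pair (146 and 145). At 2 months against wild type the Fmod difference was 0.51 on the brightest probe set and 0.06 to 0.26 on the other 5. Its day 25 difference was 0.90 ± 0.13, adjusted p = 0.404, and the other 5 Fmod probe sets gave 0.39 to 0.47, so the size depends on the probe set. Dcn, decorin, was 1136 and 877 in wild type, 749 and 1787 in the day 25 dKO, and 5062 and 1215 at 2 months. The wild-type values lay between those of the day 25 dKO arrays, and the difference of 0.21 ± 0.79 became -0.41 without dKO day 25 replicate 2. Lum and Bgn, lumican and biglycan, had 0.44 ± 0.55 and 0.32 ± 0.35, again with overlap. Lum became -0.057 without dKO day 25 replicate 2, and Bgn -0.058 without wild-type replicate 2.

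Among the mesenchymal markers 4 of 5 had higher means at day 25, and Vim was lower. Thy1, a surface glycoprotein of fibroblasts, was 87 and 98 in wild type, 124 and 155 in the day 25 dKO, and 195 and 137 at 2 months. Pdgfrb, the PDGF receptor of mural cells, was 618 and 506, then 732 and 1047, then 810 and 1324. Both genes were lowest in the wild-type pair, with day 25 log2 differences of 0.58 ± 0.22 (SE) and 0.65 ± 0.31 and adjusted p of 0.606 and 0.658 in limma. Vim, the intermediate filament protein vimentin, was 3805 and 3179 in wild type, 2613 and 2432 in the day 25 dKO, and 3518 and 2841 at 2 months. The 2 day 25 dKO arrays were the lowest of all, and the difference was -0.46 ± 0.16, adjusted p = 0.581, with -0.53 and -0.58 on its other probe sets. Pdgfra, the PDGF receptor of fibroblasts, and Tcf21, a transcription factor of mesenchyme, had 0.62 ± 0.57 and 0.34 ± 0.41 with overlapping arrays, and the other 2 Pdgfra probe sets gave 0.03 and -0.17.

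The day 25 log2 differences of the 3 mural and vessel wall genes were from 0.11 to 0.54. Notch4, a Notch receptor found mainly in endothelium, was 21 and 22 in wild type, 20 and 27 in the day 25 dKO, and 28 and 33 at 2 months, where the lower quartile of all probe sets was 22 or 23. Its values thus lay near the low end of the array, and its 2 other probe sets had day 25 differences of the opposite sign (-0.07 and -0.03). Rgs5, a regulator of G protein signalling in pericytes, was 93 and 73, then 101 and 144, then 146 and 100, with both later groups above wild type. Cspg4, the NG2 proteoglycan of pericytes, was 198 and 181, then 283 and 160, then 135 and 154. The 2 day 25 dKO values of Cspg4 enclosed the wild-type pair, and the 2-month arrays were the lowest.

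Elastic fibre and microfibril genes differed among themselves. Of the 6 measured, 3 had higher and 3 lower means in the dKO at day 25. Mfap4, a microfibril-associated glycoprotein, was 302 and 369 in wild type, 521 and 596 in the day 25 dKO, and 339 and 346 at 2 months. Its day 25 dKO arrays stood above the other 4 arrays, with a difference of 0.74 ± 0.14 (SE) from wild type, adjusted p = 0.474. Lox, lysyl oxidase, which cross-links collagen and elastin, was 794 and 308 in wild type, 359 and 174 in the day 25 dKO, and 83 and 132 at 2 months. The day 25 groups overlapped, with a difference of -0.98 ± 0.60, adjusted p = 0.702. It was -0.30 without wild-type replicate 1 and -1.66 without wild-type replicate 2. Both 2-month arrays were lower than the other 4. Fbln1, fibulin, was 3356 and 5016, then 2667 and 2749, then 3596 and 2541. Both day 25 dKO arrays of Fbln1 were below wild type (-0.60 ± 0.26, adjusted p = 0.642). Fbln2 had -0.58 ± 0.46 and was barely separated, at 150 and 101 in wild type and 67 and 100 in the day 25 dKO. The Fbln2 difference was -0.30 without wild-type replicate 1, and its other, dim probe set gave 0.07. Eln, elastin, had 0.35 ± 0.18 with no overlap, and Mfap5 0.24 ± 0.46 with overlap.

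Of the 4 matricellular genes, Sparc and Timp3 were separated upward from wild type at day 25, where 26.4% of all genes were. Sparc, a collagen-binding glycoprotein, was 3601 and 4201 in wild type, 7381 and 6158 in the day 25 dKO, and 8922 and 7304 at 2 months. Each dKO array exceeded both wild-type arrays, and the day 25 difference was 0.79 ± 0.17 (SE), adjusted p = 0.480, with 0.89 on the other bright probe set and -0.04 on a dim one. Timp3, a matrix-bound inhibitor of metalloproteinases, was 392 and 551 in wild type, 603 and 1000 in the day 25 dKO, and 3288 and 1190 at 2 months. The groups of Timp3 did not overlap, and the order was wild type, dKO at day 25, dKO at 2 months. Mgp, matrix Gla protein, an inhibitor of calcification, was 3319 and 2425, then 3141 and 4336, then 7020 and 3815, with overlap at day 25. Postn, periostin, had a day 25 difference of -0.05 ± 0.46.

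**Figure D3:**
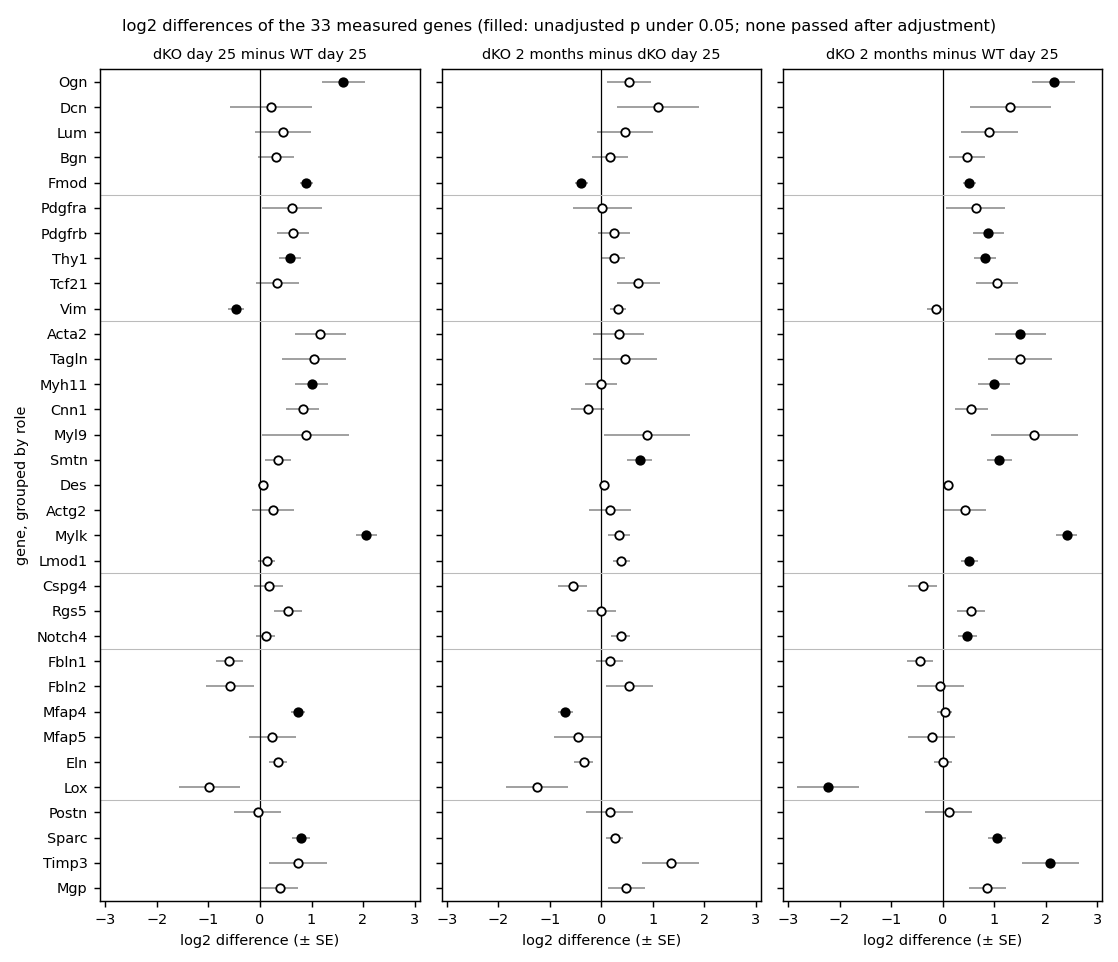
log2 differences with their SE from limma for the 33 genes, for dKO against wild type at day 25 (left), dKO at 2 months against dKO at day 25 (middle) and dKO at 2 months against wild type at day 25 (right), with filled points where the unadjusted p was under 0.05. Mylk and Ogn have the largest positive differences from wild type at day 25, 2.06 and 1.62, and Lox has the lowest at 2 months, -2.23.

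Between day 25 and 2 months in the dKO, the direction of the median depended on 1 array. The median log2 difference was 0.24, against 0.02 over all genes, and 25 of the 33 genes had higher means (53% of all genes did). Without dKO 2-month replicate 1 the median was -0.092, 14 genes had higher means, and limma gave 0 genes higher (3.14% of all genes) and 2 lower (1.86%) at an unadjusted p under 0.05. The arrays were separated upward for 5 genes (19.7% of all genes) and downward for 6 (17% of all genes). At an unadjusted p under 0.05, limma gave 1 gene higher (3.73% of all genes), Smtn, with 0.75 ± 0.24 (SE), and 2 lower (2.91%), Mfap4 with -0.70 ± 0.14 and Fmod with -0.39 ± 0.13. Adjusted p was 0.712 for each of these 3. Without dKO 2-month replicate 2 there were 9 higher (12.8%) and 1 lower (14.6%), with 23 genes separated upward (40.5% of all genes), and 16 were so without dKO day 25 replicate 2 (33.3%). Smtn, Mfap4 and Fmod kept their signs without dKO 2-month replicate 1, with 0.53, -0.69 and -0.46. Acta2 (0.33 ± 0.49), Tagln (0.46 ± 0.62) and Ogn (0.54 ± 0.42) did not, with -0.39, -0.48 and -0.10.

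The 2-month dKO arrays also differed from wild type at day 25, a comparison in which genotype and age cannot be told apart and which shares the wild-type arrays with the day 25 comparison. The median log2 difference was 0.56, against 0.04 over all genes, and 26 of the 33 genes had higher means (55.4% of all genes). Both arrays were higher for 21 genes (26.6% of all genes) and lower for 2 (17.3%), Cspg4 and Lox. At an unadjusted p under 0.05, limma gave 12 genes higher (9.54% of all genes) and Lox lower (5.38%). Without dKO 2-month replicate 1 there were 9 higher (7.74%) and 0 lower (4.41%), and the median was 0.43. Without wild-type replicate 1 there were 7 higher (4.27%) and 0 lower (2.76%), with a median of 0.89. Without wild-type replicate 2 there were 4 higher (5.92%) and 1 lower (3.52%), with a median of 0.42.

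Single genes in that comparison ranged widely. Mylk had 2.41 ± 0.21 (SE), adjusted p = 0.123, and 2.16 without dKO 2-month replicate 1. Ogn had 2.16 ± 0.42 and Sparc 1.05 ± 0.17, with adjusted p of 0.233 and 0.192, and 1.52 and 0.91 without that array. Timp3 had 2.09 ± 0.56 and Smtn 1.10 ± 0.24, with adjusted p of 0.300 and 0.259, and 1.35 and 0.88 without it. For Dcn (1.31 ± 0.79), Myl9 (1.78 ± 0.84) and Tagln (1.50 ± 0.62) the array weighed more, since the values without it were 0.28, 0.69 and 0.56. Mfap4 and Eln were near wild type, at 0.04 ± 0.14 and 0.00 ± 0.18 in size. Lox had -2.23 ± 0.60, adjusted p = 0.302, and -1.90 without that array.

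Replicates were over 2-fold apart for a larger share of these genes than of all genes, which were not matched to them in brightness. In the 2-month group the replicates were over 2-fold apart for 10 of the 33 genes (30.3%, against 8.11% of all genes). They were Ogn, Dcn, Lum, Acta2, Tagln, Myl9, Fbln2, Mfap5, Postn and Timp3, and all but Mfap5 were higher on replicate 1. At day 25 there were 2 such genes in wild type (6.06%, against 2.34%) and 3 in the dKO (9.09%, against 1.90%). Of the 33 genes, 20 had their highest value on dKO 2-month replicate 1, where 28.9% of all genes did. Only 1 gene, Fbln1, was highest on wild-type replicate 2 (13.7% of all genes), and 14 were lowest there (13.2% of all genes).

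Genes that work with these were counted from lists of their own. Of 15 fibrillar and associated collagen genes, 13 were brighter on average in the dKO at day 25, with a median log2 difference of 0.38. Between day 25 and 2 months 3 were higher and 12 lower, with a median of -0.22 (-0.38 without dKO 2-month replicate 1). In limma at day 25, 2 of them were higher at an unadjusted p under 0.05 (4.89% of all genes) and 0 were lower (3.44%). The day 25 median was 0.10 without wild-type replicate 2 and 0.67 without wild-type replicate 1. Col14a1, a collagen that associates with fibrils, was 35 and 24 in wild type, 163 and 154 in the day 25 dKO, and 778 and 270 at 2 months. Pcolce, an enhancer of procollagen processing, was 3137 and 2957, then 5085 and 4487, then 5788 and 5892. Both genes were lowest in wild type and highest at 2 months without overlap. Their day 25 log2 differences were 2.41 ± 0.53 (SE) and 0.65 ± 0.11, with adjusted p of 0.482 and 0.474.

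Of 15 regulators and partners of smooth muscle contraction, 13 had higher means at day 25 (median log2 difference 0.30). The day 25 arrays were separated upward for 10 (26.4% of all genes) and downward for 1 (19.5%). In limma 1 was higher at an unadjusted p under 0.05 against 0 that were lower, near the 4.89% and 3.44% of all genes. At 2 months against wild type 11 were separated upward (26.6%) and 1 downward (17.3%). There limma gave 6 higher at an unadjusted p under 0.05 (9.54%) and 0 lower (5.38%). Srf, serum response factor, was 447 and 452 in wild type, 490 and 502 in the day 25 dKO, and 578 and 601 at 2 months. Its groups did not overlap, but the day 25 difference was small, 0.14 ± 0.09 (SE), adjusted p = 0.709. Kcnmb1, a potassium channel subunit of smooth muscle, was dim (20 to 36) and had 0.54 ± 0.15, adjusted p = 0.537. Myocd, the cofactor myocardin, named after its values were seen, had -0.02 ± 0.37 with overlapping arrays.

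Of 12 measured genes of the TGF beta axis 6 had higher and 6 lower means at day 25 (median 0.02), and in limma 1 was lower at an unadjusted p under 0.05 (3.44% of all genes) against 0 that were higher (4.89%). That gene was Ltbp1, a TGF beta binding protein of microfibrils, with 864 and 1138 in wild type, 650 and 512 in the day 25 dKO, and 688 and 555 at 2 months. Tgfbr2, a TGF beta receptor, was higher on every dKO array (571 to 1179) than in wild type (482 and 427). The 4 PDGF ligands had a median of 0.17 at day 25, which became -0.12 when wild-type replicate 2 was left out and -0.22 when dKO day 25 replicate 2 was. Pdgfb, the ligand that acts on Pdgfrb, was 647 and 671 in wild type, 821 and 755 in the day 25 dKO, and 353 and 431 at 2 months, so that both 2-month arrays were the lowest. Pdgfb had a difference of -1.01 ± 0.13 (SE) between the dKO ages, adjusted p = 0.712.

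Markers of other cells were mostly higher on the same arrays. At day 25, 15 of 16 leukocyte markers had higher dKO means, and their summed intensity was 2154 and 4170 in wild type, 5753 to 9895 in the younger dKO and 6686 to 20827 at 2 months. All 14 endothelial markers had higher means, with sums of 1218 and 1423 in wild type, 1497 to 2135 in the younger dKO and 2290 to 4266 at 2 months. All 14 measured oocyte markers were higher too, with sums of 17601 to 29104, then 41737 to 61615, then 6253 to 32840. Of 8 theca and interstitial markers 4 were higher and 4 lower at day 25, with sums of 25501 to 30516, then 24043 to 40083, then 51442 to 61753. Hsd3b1 was a large part of these sums (12568 to 24919 over the arrays). At 2 months against wild type 7 of the 8 had higher means and 1 a lower mean. Cyp17a1, named after its values were seen, was 1275 and 1509 in wild type. It was 389 and 5073 in the day 25 dKO, far apart, and 12804 and 15028 at 2 months. Surface epithelium markers were higher for 7 of 11, with sums of 3429 to 3849, then 3683 to 4671, then 4716 to 6455. Of 6 erythrocyte markers 3 were measured and 2 were higher, with sums of 170 to 179, then 362 to 421, then 444 to 789. Most of each sum was Alas2 (129 and 127, then 364 and 289, then 598 and 398). The globin gene Hba-a1 was dim on all arrays (16 to 22). Slc4a1 was 172 on dKO 2-month replicate 1 and 23 to 54 elsewhere. No marker was at 0, and Itgam, a leukocyte integrin at 12 to 16, lay near the lowest intensity of the arrays, 6 or 7. The summed intensity of the 33 stromal and smooth muscle genes was 28757 to 30980 in wild type, 45217 to 49803 in the younger dKO and 45844 to 85147 at 2 months. On dKO 2-month replicate 1 the median level relative to the mean of all arrays was 0.58 for the 33 genes, 1.08 for endothelium, 1.68 for leukocytes, 1.10 for surface epithelium and -2.23 for oocyte markers. The median level of the 11 granulosa markers was between -0.04 and 0.23 on all arrays, but single markers went both ways. At 2 months against wild type the log2 difference was -1.15 for Esr2, -0.91 for Fst and 0.74 for Foxl2. These 3 of the 11 had an unadjusted p under 0.05 in limma, 1 higher (9.54% of all genes) and 2 lower (5.38%). The part of other cells in the differences of the stromal and smooth muscle genes was not tested.

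**Figure D4:**
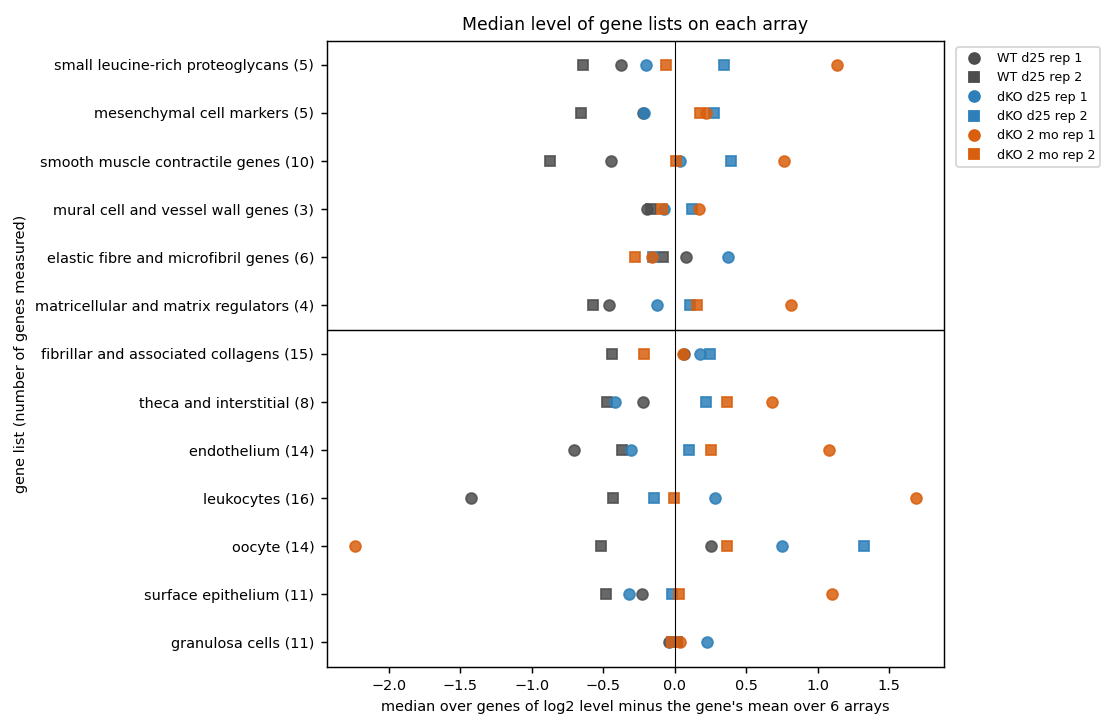
Median level of each gene list on each array, as log2(intensity + 1) minus the gene's mean over the 6 arrays, with the 6 role groups above the line, 7 other lists below it, circles for replicate 1 and squares for replicate 2. The contractile genes have both wild-type arrays lowest (-0.45 and -0.87), and dKO 2-month replicate 1 is highest for the contractile genes (0.77), endothelium and leukocytes and lowest for oocyte markers.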

How the data were processed

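Total RNA was labelled with biotin and measured on 1 array per sample. Each probe set has a deposited intensity, a whole number that is not on a log scale. The submitters' processing notes name affy and RMA. Versions and the genome build are not given in the sources used here. RMA makes the arrays share 1 distribution, which hides a shift shared by most genes.

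Values were taken as log2(value + 1), which understates differences of dim genes, and 64 AFFX controls were left out of 45101 probe sets. The platform annotation gave 1 symbol for 34945 probe sets. In R 4.3.3, limma 3.58.1 fitted all 6 arrays with a mean per group (3 residual degrees of freedom), and p-values were adjusted by Benjamini-Hochberg over 45037 probe sets. Counts over genes use the brightest probe set of each. Simulated data, drawn with the spread that the fit itself estimated, were used only to check that large planted differences were recovered. They do not show how often differences of the size seen here would be found. Full values were given for up to 3 genes per role group and 2 per other list, those of smallest p, though not all of the latter are printed. The genes and lists were chosen with earlier results of these data known. Promoters and gene names came from RefSeq tables of GRCm38.p6. The number of arrays limits the precision, and an exact permutation test of 2 against 2 cannot give a p below 0.333. The labels do not say that replicates are separate animals, and the p-values thus cover the spread of these samples alone, possibly technical. Alternatives were a pseudocount of 16, centring, repeated quantile normalization, leaving out dim probe sets (mean under 50), an intensity trend with a robust prior, the 4 arrays compared alone, other choices of probe set, a replicate block and leaving out each array.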

Additional observations from a re-analysis of the deposited data

How the results depend on the processing

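No gene of the list passed an adjusted p of 0.05 in limma under any alternative in any comparison. Apart from leaving out an array, the counts of genes with a higher mean, of separated genes and of genes at an unadjusted p under 0.05 stayed within 1.5 times under every alternative. Replicate numbers are shared between groups, but the labels do not say what they mean, and the differences between replicates correlated by -0.149, 0.0139 and -0.271 between groups. The replicate number was used as a block as given and, chosen after seeing the data, with the wild-type numbers crossed. The counts of genes with a higher mean and of separated genes were also added to the alternatives after seeing the data. With each array left out in turn, with the lone array taken to vary as the other groups do, the ranges for dKO against wild type at day 25 were 4 to 10 genes at an unadjusted p under 0.05, 24 to 29 with a higher mean, 14 to 24 separated upward and a median of 0.16 to 0.73. Between the dKO ages they were 2 to 10, 14 to 26, 5 to 23 and -0.092 to 0.48. In the older dKO against wild type they were 5 to 17, 23 to 29, 21 to 25 and 0.42 to 0.89. The counts of 10, 10 and 17 were reached without dKO 2-month replicate 2, where more of all genes reached that p too. Their shares in limma were 9.05% higher and 6.09% lower at day 25, 12.8% and 14.6% between the dKO ages, and 15.6% and 14.5% in the last comparison. The 24 and 23 separated genes stood against 40.6% and 40.5% of all genes. Over the same arrays left out, 51.1% to 57.4% of all genes had a higher mean at day 25, with a median of 0.012 to 0.046. Between the dKO ages these values were 51.1% to 54.2% and 0.010 to 0.024. In the older dKO against wild type they were 53.5% to 60.3% and 0.029 to 0.056. Whether the list differs from all genes was not tested.

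For the 20 genes given in full, signs turned 19 times over all alternatives, in 13 of 60 single-gene results, all with values that had not passed. Over all 33 genes, leaving out 1 array turned the sign of 36 of 99 differences, 11 of them at day 25. Between the dKO ages Myh11 was 0.037 with repeated quantile normalization and 0.015 with the mean of all probe sets, and Rgs5 was -0.073 with the latter. The other turns came from leaving out an array. At day 25 these were Cspg4 (-0.24 to 0.58 over the arrays left out), lowest without dKO replicate 1, and Dcn (-0.41 to 0.84) and Notch4 (-0.099 to 0.32), lowest without dKO replicate 2. Between the dKO ages Ogn (-0.098 to 1.17), Thy1 (-0.017 to 0.49), Acta2 (-0.39 to 1.06), Tagln (-0.48 to 1.40) and Fbln1 (-0.092 to 0.41) were negative without dKO 2-month replicate 1. Myh11 (-0.37 to 0.36) turned positive without replicate 2 of either dKO group. Rgs5 (-0.27 to 0.27) was negative without replicate 1 of either dKO group, and Pdgfrb (-0.11 to 0.60) without the older replicate 2 or the younger replicate 1. In the older dKO against wild type Mfap4 (-0.11 to 0.18) was negative without wild-type replicate 1 and Vim (-0.29 to 0.017) positive without dKO 2-month replicate 2. The cause was not tested.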
